A study of Mus musculus with 9 samples.

Results

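Mouse embryonic stem cells exposed for 30 min to BRD0705 were compared directly with the same cells exposed to CHIR, the 2 inhibitors of glycogen synthase kinase 3 (GSK3) in the series. All 6 inhibitor libraries of the 9 libraries in the series entered the comparison, and the 3 control libraries entered neither the filter, the scaling nor the fit. GSK3 is a pair of closely related serine/threonine kinases, GSK3α and GSK3β. They phosphorylate β-catenin, glycogen synthase, Myc and many other proteins, and in mouse embryonic stem cells their joint inhibition is part of the medium that holds the naive state. BRD0705 is selective for GSK3α, whereas CHIR-99021, written CHIR, inhibits both kinases. By this selectivity the comparison is meant to set inhibition of 1 kinase against inhibition of both, but the libraries do not measure kinase activity.

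All 3 groups were cells labelled β-catenin-/-, so β-catenin, the effector of canonical Wnt signalling, was lacking in the inhibitor groups and the control alike, per the labels. The cells had been expanded on feeder-treated dishes in DMEM/FBS or N2B27 medium with LIF at 40 ng/ml, PD03, an inhibitor of MEK, at 1 µM, and CHIR itself at 3 µM. They were kept overnight in N2B27 and then received BRD0705, CHIR or no inhibitor for 30 min, with 3 libraries per group. The labels give no dose for the 30 min exposure, so kinase selectivity and dose cannot be told apart in what follows. They also do not say whether replicates were separate cultures or whether the cells were 1 clone, and p-values measure the spread between these libraries, which may be technical. In such bulk RNA, fewer cells of a type and less RNA per cell cannot be told apart.

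Total counts ranged from 17359422 to 20773337 per library, and 14921 of the 52264 genes listed had enough counts to be tested. The pluripotency genes Pou5f1, Sox2, Nanog, Zfp42 and Esrrb were read in every library. Ctnnb1, the gene named in the genotype, was read at 303, 331 and 354 CPM, which are counts scaled to a common library size, in the BRD0705 libraries and 370.2, 371 and 341 CPM in the CHIR libraries. The labels do not say which part of the gene was deleted, so these reads do not check the genotype. The dishes were feeder-treated, and the share of these reads that came from any feeder cells was not measured. Gsk3a was at 219 ± 20.8 CPM in the BRD0705 and 225 ± 19.8 CPM in the CHIR libraries, and Gsk3b at 85.5 ± 7.39 and 81.6 ± 0.688 CPM (SD, n = 3 each). Ctnnb1, Gsk3a and Gsk3b did not pass the edgeR quasi-likelihood test (adjusted p = 0.226, 0.811 and 0.588). The 95% interval of the log2 difference, BRD0705 minus CHIR, was -0.20 to 0.12 for Gsk3a and -0.07 to 0.20 for Gsk3b.

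The sequences around 9 transcription start sites are shown. They are those of 3 nuclear regulators, Ppp1r10, Dido1 and Zc3h4, shown for having the smallest p-values of all genes, each higher with BRD0705, and of 6 called host genes of small nucleolar RNAs (snoRNAs), higher with CHIR. The host genes are shown because a run of at least 6 pyrimidines lies within 20 bases of the start, on either side. Transcripts of many snoRNA hosts are known to begin in a run of pyrimidines, the feature that also marks ribosomal protein genes. Each sequence runs from 30 bases before to 25 bases after the start, on mm10 (GRCm38.p6), from RefSeq. Capitals mark the longest run of C and T counted inside the 20 bases on each side of the start, read in the direction of transcription. Runs were cut at the edge of that stretch, so an unmarked run that crosses it can be longer, as in Ppp1r10 and Zc3h4. Among the host genes the marked run spans the start in Gas5 and Snhg12, lies after it in Snhg1, Snhg5 and Snhg16, and lies before it in Snhg17. Where the table of RefSeq starts used here gives several, the one with the longest run was taken for the host genes and the most upstream of those listed for the regulators. The gene positions given for Ppp1r10, Dido1, Zc3h4 and Gas5 further on reach beyond the starts shown.
Snhg1 (chr19:8723457-8723511, plus strand): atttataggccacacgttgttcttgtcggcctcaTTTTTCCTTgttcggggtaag
Snhg5 (chr9:88522873-88522927, minus strand): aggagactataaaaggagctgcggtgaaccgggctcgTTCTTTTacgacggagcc
Gas5 (chr1:161035136-161035190, plus strand): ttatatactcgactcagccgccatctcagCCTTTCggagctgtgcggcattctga
Snhg12 (chr4:132308648-132308702, plus strand): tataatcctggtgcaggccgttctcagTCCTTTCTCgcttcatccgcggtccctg
Snhg17 (chr2:158361498-158361552, minus strand): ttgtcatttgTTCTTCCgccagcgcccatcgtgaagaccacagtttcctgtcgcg
Snhg16 (chr11:116671630-116671684, plus strand): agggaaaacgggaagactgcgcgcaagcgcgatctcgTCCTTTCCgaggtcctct
Ppp1r10 (chr17:35917166-35917220, plus strand): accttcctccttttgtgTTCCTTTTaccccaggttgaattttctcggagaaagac
Dido1 (chr2:180709975-180710029, minus strand): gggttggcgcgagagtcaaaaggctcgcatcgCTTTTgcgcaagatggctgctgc
Zc3h4 (chr7:16401166-16401220, plus strand): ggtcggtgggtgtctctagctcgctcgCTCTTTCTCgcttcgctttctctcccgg
A start sequence was at hand for 11187 of the 14921 tested genes. A run of at least 6 pyrimidines lay within 20 bases of the start in 41.3% of them, in 41.4% of the genes higher with BRD0705 and in 42.4% of the genes higher with CHIR. It was present in 68.3% of the 63 ribosomal protein genes with a start. In the snoRNA host list it was present in 9 of the 19 tested members with a start (47.4%) and in 6 of the 11 called members with a start (54.5%). The 6 host genes shown are those 6, chosen for the run, so their runs are a description. By these shares the runs were about as frequent near the starts of the genes called on each side as near those of all genes. The TCF/LEF word CTTTGAT, searched on both strands in the 250 bases before and 50 bases after the start, was present in 1.82% of the genes higher with BRD0705, 2.23% of those higher with CHIR and 2.94% of all tested genes.

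Transcript levels differed between BRD0705 and CHIR after 30 min. In the edgeR quasi-likelihood test at a Benjamini-Hochberg adjusted p under 0.05, 1069 genes differed, which is 7.16% of those tested: 653 were higher with BRD0705 (4.38%) and 416 were higher with CHIR (2.79%). Most differences were small, with a median absolute log2 difference of 0.35 among the called genes and 0.12 among all tested. Of the 303 called genes with an absolute log2 difference of 0.5 or more, 260 were higher with BRD0705 and 43 higher with CHIR, and of the 57 with one of 1 or more, 49 were higher with BRD0705. For 1062 of the called genes the BRD0705 and CHIR libraries had no overlap in CPM, against 27.0% of all tested genes. An unadjusted p under 0.05 was reached by 3353 genes.

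The share of calls on each side depended on the scaling. Genes higher with BRD0705 made up 61.1% of the calls as reported, 35.6% after trends over transcript GC content and length had been removed from each library, and 78.0% when libraries were scaled by total count alone. The 2 groups differed in this trend. Across genes, the Spearman correlation of a library's deviation with GC content was 0.24, 0.0095 and 0.18 in BRD0705 replicates 1 to 3 and -0.14, -0.19 and -0.11 in the CHIR replicates. The median GC content of the transcripts was 53.5% for genes higher with BRD0705, 46.8% for genes higher with CHIR and 50.6% for all tested. Among the calls after the correction these medians were 51.6% and 50.8%. With the correction, 1114 genes passed, 730 of them among the 1069, and of those with an absolute log2 difference of 0.5 or more 184 were higher with BRD0705 and 46 with CHIR. The number of calls fell to 489, 591, 629 and 456 when BRD0705 replicate 1, BRD0705 replicate 2, CHIR replicate 1 or CHIR replicate 2 was left out.

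**Figure D1:**
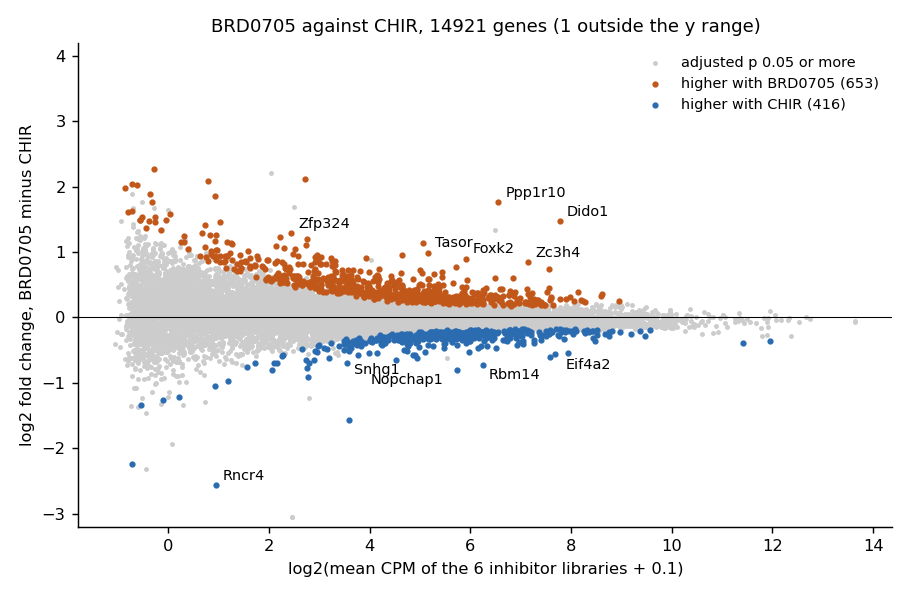
Log2 difference between BRD0705 and CHIR (y axis) against the log2 of the mean CPM of the 6 inhibitor libraries plus 0.1 (x axis), 1 point per tested gene, with called genes in colour and 1 gene outside the y range. Of the called genes beyond 0.5 from 0, 260 lie above and 43 below, and Ppp1r10 and Dido1 stand apart from genes of their level.

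The control libraries place these differences. They were fitted with both inhibitors in a separate model of all 9 libraries, and both inhibitors are set against the same control libraries, so the values stand side by side only. Against control, 188 of 15366 genes passed with BRD0705 (1.22%) and 968 passed with CHIR (6.30%). For the 653 genes higher with BRD0705, the median log2 difference from control was 0.12 with BRD0705 and -0.33 with CHIR. The 416 genes higher with CHIR had medians of -0.11 with BRD0705 and 0.20 with CHIR. Within the larger differences of 0.5 or more, the 260 higher with BRD0705 had medians of 0.11 and -0.63, and the 43 higher with CHIR had medians of -0.15 and 0.51. In these medians the CHIR libraries lay further from control than the BRD0705 libraries did on both sides. The fit with control was not corrected for transcript GC content or length, and trends over them were not measured in the control libraries.

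The genes with the smallest p-values were Ppp1r10, Dido1, Zc3h4, Foxk2 and Tasor, which encode nuclear proteins and were higher with BRD0705. Ppp1r10 encodes PNUTS, the subunit that brings protein phosphatase 1 to chromatin and to terminating polymerase (chr17:35916512-35932283). It was at 154, 143 and 140.5 CPM in BRD0705 replicates 1 to 3, 39.9, 44.8 and 44.3 CPM in the CHIR replicates and 125, 120.1 and 132 CPM in control. The BRD0705 and CHIR values lay far apart, and the control values lay below those with BRD0705 and far above those with CHIR. The level was 3.39-fold higher with BRD0705 than with CHIR (log2 difference 1.76, SE 0.064, edgeR adjusted p = 2.03e-10). The counts may include reads of Mir1894, which lies within the gene on the same strand.

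Dido1 encodes a chromatin reader with a PHD finger that associates with RNA polymerase II (chr2:180657963-180710068). It was at 339, 322 and 306 CPM with BRD0705, 114, 115 and 119 CPM with CHIR and 310.3, 289 and 321 CPM in control. Each CHIR library was below each of the other libraries, while the BRD0705 and control values overlapped. The difference between the inhibitors was 2.78-fold (log2 1.47, SE 0.055, edgeR adjusted p = 2.03e-10). Zc3h4, a zinc finger protein that stops unproductive transcription outside genes (chr7:16399583-16437696), was at 191, 179 and 175 CPM with BRD0705, 101, 102 and 101 CPM with CHIR and 170.0, 169 and 170.1 CPM in control. It was 1.79-fold higher with BRD0705 (log2 0.84, SE 0.054, edgeR adjusted p = 3.25e-07), with CHIR the lowest group and no overlap.

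Tasor, a subunit of the HUSH complex that silences retroelements (chr14:27423674-27483555), was at 44.5, 49.3 and 47.7 CPM with BRD0705, 25.8, 22.4 and 23.0 CPM with CHIR and 42.0, 52.1 and 50.3 CPM in control. The 3 CHIR libraries stood at about the same low level, and BRD0705 and control overlapped. The inhibitors differed 1.99-fold (log2 0.99, SE 0.071, edgeR adjusted p = 1.10e-06). Foxk2, a forkhead transcription factor (chr11:121259987-121309900), was at 78.1, 75.7 and 79.9 CPM with BRD0705, 42.4, 39.8 and 43.3 CPM with CHIR and 69.3, 64.4 and 74.1 CPM in control, and was 1.86-fold higher with BRD0705 (log2 0.90, SE 0.058, edgeR adjusted p = 3.25e-07). Its BRD0705 and CHIR values did not overlap. Against control, from the fit of all 9 libraries, the log2 differences with CHIR were -1.55 for Ppp1r10, -1.40 for Dido1, -0.74 for Zc3h4, -1.02 for Tasor and -0.73 for Foxk2. With BRD0705 they were 0.21, 0.07, 0.10, -0.03 and 0.17, and none of these 5 passed edgeR's test against control (adjusted p from 0.0843 for Ppp1r10 to 0.901 for Tasor). These 5 genes were called between the inhibitors under each alternative that tested them, leaving out each library included. Annotated genes lie on the opposite strand of Ppp1r10, Zc3h4, Tasor and Foxk2, and the use of strand in counting is not given in the sources used here.

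**Figure D2:**
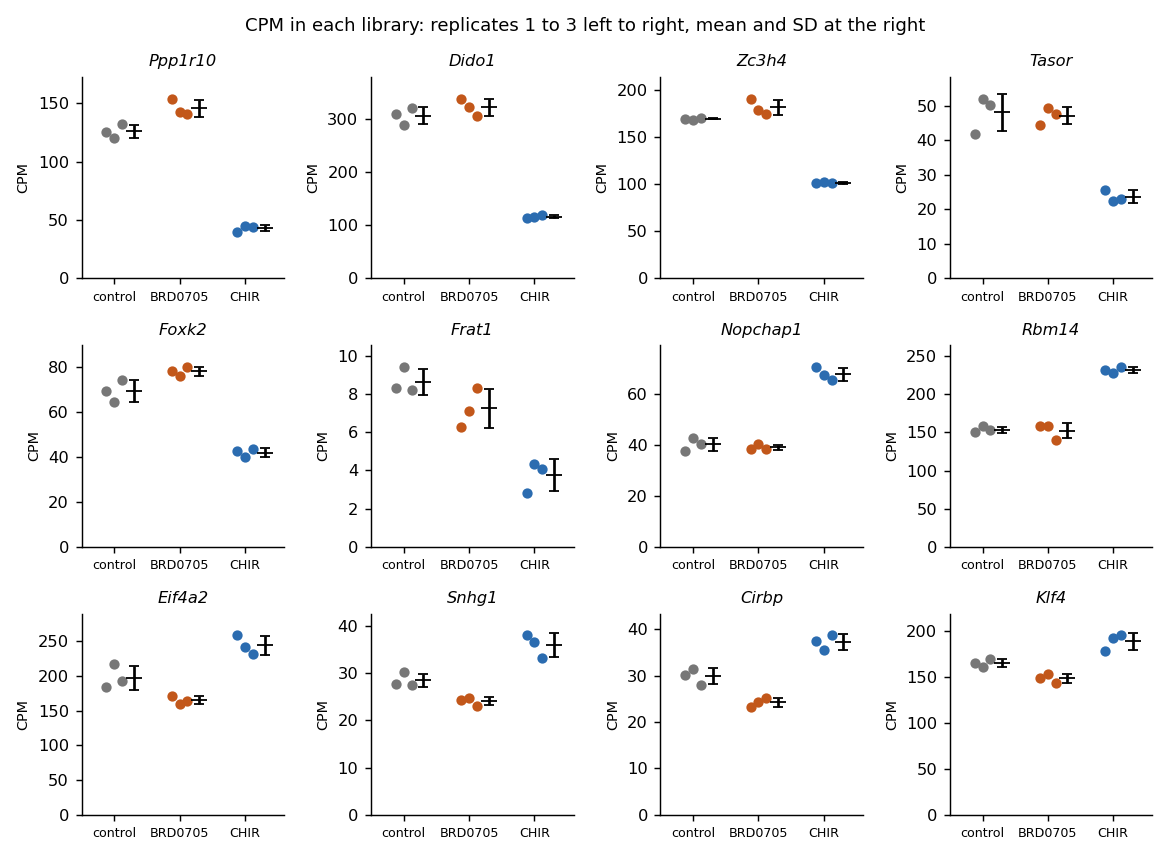
CPM of 12 genes in each library (points, replicates 1 to 3 from left to right), with the mean and SD of each group beside them, in control, BRD0705 and CHIR. In the first 6 panels the CHIR libraries are the lowest, as for Ppp1r10 at 43.0 CPM on average against 146 CPM with BRD0705, and in the last 6 they are the highest.

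The list that holds Ppp1r10 and Dido1 was called in both directions. Of 51 tested genes of RNA polymerase II pausing, elongation and nuclear protein phosphatase 1, 6 were higher with BRD0705 and 4 were higher with CHIR, which is 19.6% against 7.16% of all tested genes, with a list median of -0.03 on the log2 scale against 0.0041 for all tested genes. The 6 were Ppp1r10, Dido1, the cleavage and termination factor Pcf11 (log2 difference 0.57, SE 0.059), the P-TEFb inhibitor Hexim1 (0.44, SE 0.059), the Integrator subunit Ints6 (0.32, SE 0.079) and the 7SK capping enzyme Mepce (0.29, SE 0.064). The 4 higher with CHIR were the P-TEFb cyclins Ccnt2 (-0.34, SE 0.053) and Ccnt1 (-0.26, SE 0.061), the elongation kinase Cdk12 (-0.33, SE 0.071) and the Integrator endonuclease Ints11 (-0.32, SE 0.061).

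Hexim1 was at 91.6, 85.7 and 97.2 CPM with BRD0705 and 68.4, 67.6 and 66.0 CPM with CHIR, against 101, 86.4 and 89.9 CPM in control. Ccnt2 was at 85.5, 90.6 and 87.4 CPM with BRD0705 and 112, 110.2 and 112 CPM with CHIR, against 74.6, 84.9 and 86.1 CPM in control. In neither gene did the inhibitor groups overlap (edgeR adjusted p = 4.87e-04 for Hexim1 and 0.00134 for Ccnt2). The number of members higher with CHIR was 2 without CHIR replicate 2, where Cdk12 was among those lost, and 8 after the GC and length correction.

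Small lists of partner genes were drawn up after these differences had been seen, so their counts are descriptions, to be set beside the 4.38% of all tested genes called higher with BRD0705 and the 2.79% called higher with CHIR. Of 6 tested HUSH components Tasor alone was called, and Mphosph8, its chromodomain partner, did not pass (log2 difference -0.08, SE 0.065, edgeR adjusted p = 0.495). Of 10 tested genes of the restrictor and of nuclear RNA decay, Zc3h4 was higher with BRD0705 and Zfc3h1, which feeds polyadenylated RNA to the nuclear exosome, was higher with CHIR (-0.31, SE 0.061, adjusted p = 0.00737). Wdr82, the partner of Zc3h4, did not pass (-0.14, SE 0.050, adjusted p = 0.107). Of 16 cleavage and termination factors, 3 were called, each higher with BRD0705: Pcf11, Cstf3 (0.30, SE 0.061) and Scaf4 (0.26, SE 0.062). The median of these 16 was -0.042, below 0 and so opposite in sign to the called members. Of 12 nonsense-mediated decay factors, 3 were called, each higher with CHIR: Smg6 (-0.29, SE 0.058), Smg5 (-0.26, SE 0.052) and Upf2 (-0.24, SE 0.059), with a median of -0.13 over the 12.

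Of the genes of the GSK3 pathway itself 1 was called. Frat1, which encodes a protein that binds GSK3 and keeps it from Axin (chr19:41829970-41832583), was at 6.31, 7.11 and 8.36 CPM with BRD0705, 2.79, 4.35 and 4.10 CPM with CHIR and 8.33, 9.44 and 8.23 CPM in control. The CHIR values lay below those of both other groups, and the highest BRD0705 value overlapped with control. The level was 1.95-fold higher with BRD0705 (log2 0.96, SE 0.18, edgeR adjusted p = 0.00451), and Frat1 was the 1 called member among 22 tested genes of GSK3 and the β-catenin destruction complex, a share of 4.55% against 7.16% of all tested genes. Without BRD0705 replicate 2, 1 further member passed, higher with CHIR, and after the GC and length correction 5 were higher with CHIR, where the list median was -0.11 against -0.056 without the correction.

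No tested member of the list of canonical Wnt targets was called between the inhibitors in these cells labelled β-catenin-/-. Myc and Sox4, which were called and are counted in other lists, were not on it. By edgeR 0 of 18 tested members passed, 2 had an unadjusted p under 0.05, and DESeq2 and limma voom also called 0. Without BRD0705 replicate 2 or BRD0705 replicate 3, 1 member passed, after the GC and length correction 1 was higher with CHIR, and without the low-count filter 1 passed on each side. The list median was 0.07, and it lay below 0 after the correction. Axin2, the standard feedback target, was at 14.8, 13.3 and 13.2 CPM with BRD0705 and 13.3, 15.0 and 16.0 CPM with CHIR, and these values overlapped. Its log2 difference was -0.10 with a 95% interval of -0.30 to 0.11. Lef1 and Ccnd1 had intervals of -0.16 to 0.33 and -0.03 to 0.19.

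On the other side, higher with CHIR, the list with the highest share of calls was the host genes of snoRNAs, mostly noncoding transcripts whose introns hold the guides of ribosomal RNA modification. The list held these hosts and other nuclear noncoding RNAs. Of its 25 tested members 13 were called, each higher with CHIR, which is 52.0% against 2.79% of all tested genes. The 13 log2 differences ranged from -0.58 to -0.28, and 24 of the 25 members had a difference below 0, with a list median of -0.32. The list was chosen with earlier results of these data known, and its count is a description.

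Snhg1, a host of several C/D box snoRNAs (chr19:8723487-8726326), was at 24.3, 24.7 and 23.1 CPM with BRD0705, 38.0, 36.6 and 33.2 CPM with CHIR and 27.7, 30.1 and 27.5 CPM in control. Each BRD0705 library was below control and each CHIR library above it, and the log2 difference between the inhibitors was -0.58 (SE 0.071, edgeR adjusted p = 2.42e-04). Snhg5 (chr9:88521052-88522897) was at 26, 27.5 and 29.8 CPM with BRD0705, 43.4, 39.2 and 38.3 CPM with CHIR and 31.3, 33.5 and 36.1 CPM in control (log2 -0.53, SE 0.072, edgeR adjusted p = 5.35e-04), and its 3 groups likewise did not overlap. Gas5, a host whose transcript accumulates when growth stops (chr1:161034601-161038539), was at 60.6, 59.6 and 58.2 CPM with BRD0705, 91.2, 75.5 and 78.8 CPM with CHIR and 63.6, 76.2 and 70.3 CPM in control. Its inhibitor groups did not overlap, while CHIR and control did (log2 -0.46, SE 0.068, edgeR adjusted p = 0.00103).

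Zfas1 differed from these hosts in where control lay: it was at 12.9, 12.3 and 13.4 CPM with BRD0705, 18.5, 19.4 and 18.4 CPM with CHIR and 12.5, 13.0 and 13.4 CPM in control, so that BRD0705 overlapped with control and CHIR was apart. The paraspeckle RNA Neat1 was at 58.4, 51.3 and 44.1 CPM with BRD0705 and 87.8, 72.0 and 61.2 CPM with CHIR (log2 -0.52, SE 0.11), whereas Malat1, its neighbour on chromosome 19, did not pass (-0.19, SE 0.071, edgeR adjusted p = 0.130). Snhg4 had a larger difference than Snhg1 (-0.68, SE 0.24), but at 1.76 and 2.84 CPM on average it did not pass (adjusted p = 0.100). Dancr and Snhg18 were near 0 (-0.01, SE 0.12, and 0.01, SE 0.21). Against control, the 13 called members had a median log2 difference of -0.24 with BRD0705 and 0.29 with CHIR.

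The count of 13 fell to 7 without CHIR replicate 1 and to 8 without BRD0705 replicate 1, BRD0705 replicate 2 or CHIR replicate 2. It was 10 after the GC and length correction and 10 with DESeq2. The snoRNA genes within hosts have rows of their own in the table, and reads may be split between them. With all rows that can share reads left out, 2 members were called.

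**Figure D3:**
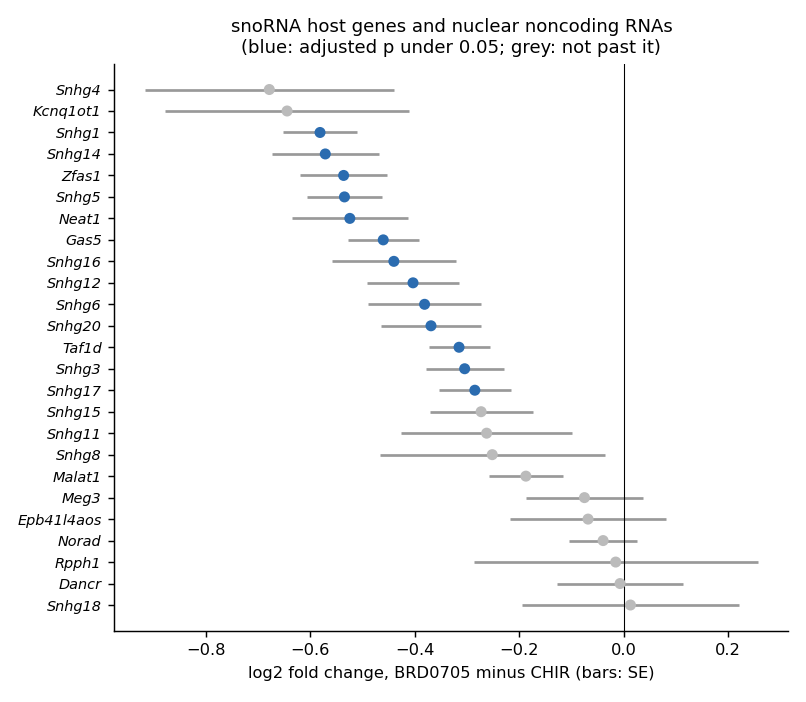
Log2 difference between BRD0705 and CHIR (x axis) with its SE for the 25 tested members of the list of snoRNA hosts and nuclear noncoding RNAs (y axis), blue where the adjusted p was under 0.05. The 13 called members lie between -0.58 and -0.28, to the left of 0, which stands for equal levels.

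Nopchap1 had the largest difference among the genes higher with CHIR that had a mean CPM of at least 5 and a unique named symbol. It encodes an assembly factor of snoRNA-protein particles and was at 38.4, 40.3 and 38.7 CPM with BRD0705, 70.9, 67.5 and 65.8 CPM with CHIR and 37.7, 42.7 and 40.5 CPM in control. The CHIR libraries were above all others, and the fold was 1.74 (log2 difference -0.80, SE 0.058, edgeR adjusted p = 1.28e-06). Rbm14, a paraspeckle protein and coactivator (chr19:4800566-4811634), was at 158, 159 and 141 CPM with BRD0705, 232, 228 and 236 CPM with CHIR and 150.3, 158 and 153 CPM in control (log2 -0.61, SE 0.057, edgeR adjusted p = 2.10e-05). Its BRD0705 and control values overlapped, and CHIR was apart. A fusion gene model, Gm21992, overlaps Rbm14 on the same strand, so its counts are uncertain to that extent.

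Rbm15, which guides the m6A methyltransferase to RNA, was higher with CHIR by a log2 difference of -0.64 (SE 0.078, BRD0705 minus CHIR). Eif4a2, a translation initiation helicase whose introns hold snoRNAs, was at 171, 160.2 and 165 CPM with BRD0705, 259, 242 and 232 CPM with CHIR and 184, 217 and 192 CPM in control, a log2 difference of -0.56 (SE 0.056). Cirbp, the cold-inducible RNA-binding protein, was at 23.2, 24.2 and 25.3 CPM with BRD0705, 37.5, 35.4 and 38.7 CPM with CHIR and 30.2, 31.3 and 27.9 CPM in control (log2 -0.62, SE 0.067). For Cirbp the 3 groups did not overlap, with control between the inhibitors, and for Eif4a2 likewise. Rbm15, Eif4a2 and Cirbp each passed edgeR's test (adjusted p = 2.46e-04, 3.61e-05 and 7.98e-05).

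Further leading genes higher with CHIR were the cholesterol hydroxylase Ch25h (-0.77, SE 0.17), the kinase Cdk20 (-0.65, SE 0.14), Itfg2, a subunit of the KICSTOR complex (-0.57, SE 0.068), Snhg14 (-0.57, SE 0.10) and the kinetochore protein Nsl1 (-0.54, SE 0.10). Ch25h did not pass without BRD0705 replicate 2 (edgeR adjusted p = 0.0573). Rncr4, a noncoding RNA below the level required of named genes and chosen after its values were seen, was at 0.535, 0.569 and 0.475 CPM with BRD0705, 3.89, 3.30 and 2.19 CPM with CHIR and 0.394, 0.678 and 0.591 CPM in control (log2 -2.57, SE 0.30, adjusted p = 1.61e-04). At this level its CHIR libraries were apart from all others.

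Splicing factors of the SR family and their Clk kinases were another set with calls on the CHIR side. Of 29 tested members, 6 were called, each higher with CHIR (20.7%, against 2.79% of all tested genes), with a list median of -0.12. They were the U1-associated factor Luc7l (-0.44, SE 0.056), the splicing regulators Tra2a (-0.26, SE 0.056) and Tra2b (-0.20, SE 0.051), Srsf10 (-0.24, SE 0.052), Srsf5 (-0.22, SE 0.055) and the kinase Clk3 (-0.23, SE 0.063). Luc7l was at 68, 66.9 and 69.7 CPM with BRD0705, 95.9, 93.5 and 88.7 CPM with CHIR and 69.4, 75.8 and 77.9 CPM in control, and the inhibitor groups did not overlap (edgeR adjusted p = 3.30e-04). Clk1 was not called (0.10, SE 0.066). The count was 1 without BRD0705 replicate 1 and 3 without BRD0705 replicate 2 or CHIR replicate 2.

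**Figure D4:**
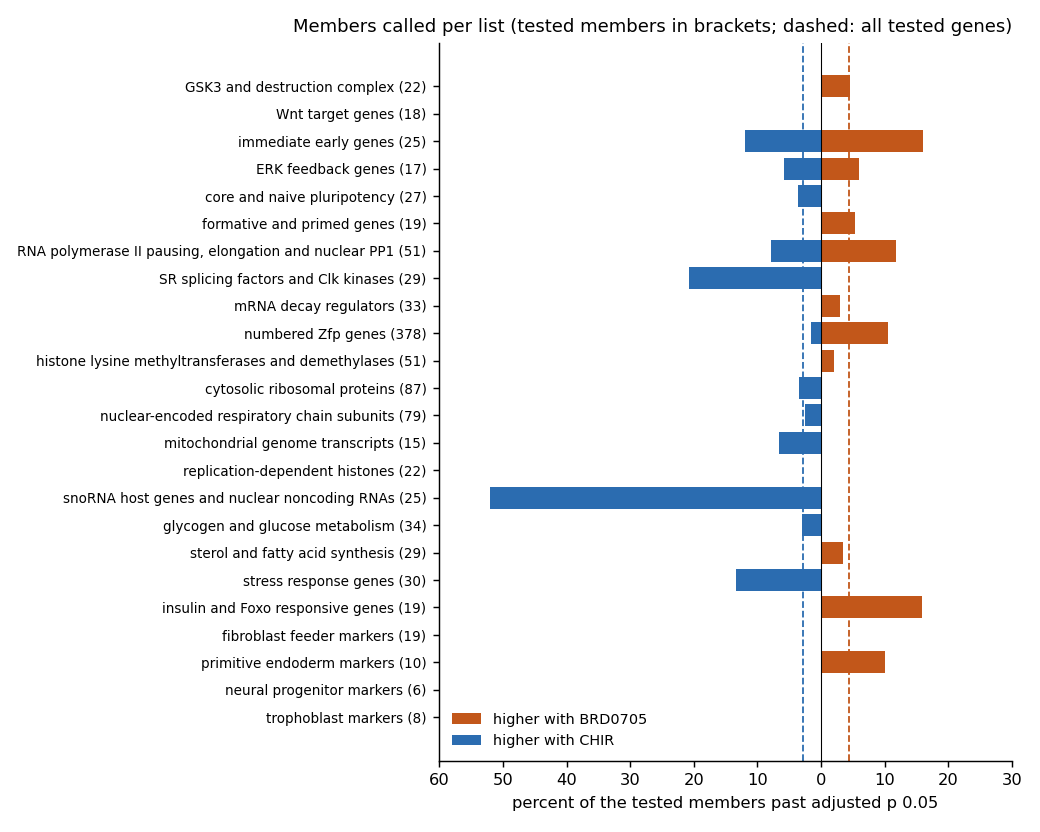
Percent of the tested members of each gene list that were called higher with BRD0705 (orange, to the right) or higher with CHIR (blue, to the left), with the number tested in brackets and the shares over all tested genes as dashed lines. The snoRNA host list reaches 52.0% on the CHIR side, against 2.79% of all genes.

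The numbered Zfp genes, a list drawn by symbol alone, were called mainly on the BRD0705 side. Many such genes encode zinc finger transcription factors that recruit silencing complexes to DNA, but the members were not sorted by this. Of 378 tested, 40 were higher with BRD0705 (4.38% of all tested genes were) and 6 were higher with CHIR. The median log2 difference was 0.45 for the 40 and -0.28 for the 6, while the median of the whole list was 0.03. Among the 40, the median difference from control was 0.028 with BRD0705 and -0.40 with CHIR. Of the 40, 18 had a log2 difference of 0.5 or more, and 18 lie on chromosome 7, where 91 members were tested and 1 was higher with CHIR.

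Zfp324 (chr7:12965838-12974244) was at 7.70, 7.0 and 8.07 CPM with BRD0705, 3.04, 3.19 and 3.12 CPM with CHIR and 8.53, 7.31 and 7.93 CPM in control. It was 2.44-fold higher with BRD0705 (log2 1.29, SE 0.14, edgeR adjusted p = 1.11e-04), with BRD0705 and control overlapping. Zfp532, chosen after its values were seen as the member with the highest level among the 40, differed less, from 209 ± 2.91 CPM with BRD0705 to 159.7 ± 1.72 CPM with CHIR (SD, n = 3 each, log2 0.39, SE 0.049). Zfp964 had the largest difference of the list (1.47, SE 0.39) at 0.988 and 0.359 CPM on average, and it passed under 10 of 18 alternatives. On the other side, Zfp997 was at 5.24, 5.92 and 5.98 CPM with BRD0705, 9.07, 9.36 and 8.58 CPM with CHIR and 5.37, 5.42 and 6.06 CPM in control (log2 -0.65, SE 0.12, edgeR adjusted p = 0.00505), so that CHIR stood apart from both, and Zfp998 differed by -0.41 (SE 0.082). The count of 40 was 21 to 23 when BRD0705 replicate 1 or 2 or any CHIR replicate was left out, and 32 after the GC and length correction. The count of 6 was 3 without BRD0705 replicate 1, BRD0705 replicate 2 or CHIR replicate 2, and 16 after that correction.

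**Figure D5:**
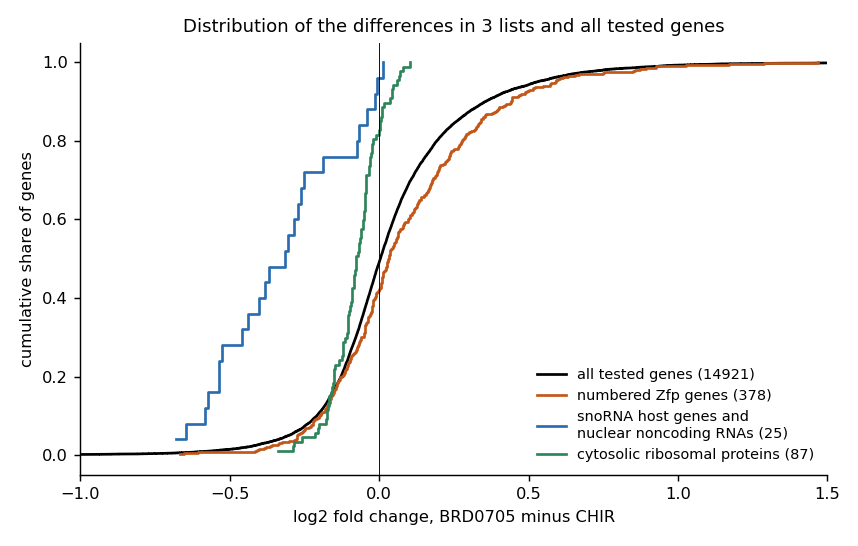
Cumulative share of genes (y axis) against the log2 difference between BRD0705 and CHIR (x axis, shown from -1 to 1.5) for all 14921 tested genes and 3 lists. The curve of the 25 snoRNA hosts and nuclear noncoding RNAs lies to the left of the others over nearly all of its range, the 87 ribosomal protein genes are shifted less, and the 378 numbered Zfp genes lie to the right of all genes over most of the range.

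Further single genes lay on the BRD0705 side. Fam83h, a scaffold of casein kinase 1, was at 33.8, 32.4 and 32.2 CPM with BRD0705, 15.9, 19.3 and 15.7 CPM with CHIR and 34.7, 29.5 and 28.4 CPM in control (log2 0.95, SE 0.083, edgeR adjusted p = 9.38e-06). Naif1, a nuclear factor (0.91, SE 0.10), Hykk, hydroxylysine kinase (0.94, SE 0.17), the noncoding RNA Lrp8os2 (0.93, SE 0.12) and Spata31d1a (0.92, SE 0.13) were of like size. Cpne1 was uneven within its group, at 7.44, 4.32 and 11.1 CPM with BRD0705 and 4.19, 3.25 and 3.72 CPM with CHIR. It shares its strand with Rbm12 and Gm28036, and it did not pass without BRD0705 replicate 1, BRD0705 replicate 3 or CHIR replicate 2, nor with DESeq2 or limma voom.

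Genes that respond to insulin, a signal that inhibits GSK3, and to Foxo factors gave 3 calls among 19 tested members, each higher with BRD0705, which is 15.8% against 4.38% of all tested genes. Irs2, the insulin receptor substrate, was at 12.7, 13.5 and 11.4 CPM with BRD0705, 6.93, 7.43 and 7.27 CPM with CHIR and 12.5, 13.3 and 12.3 CPM in control. BRD0705 and control overlapped and CHIR was apart (log2 0.80, SE 0.11, edgeR adjusted p = 5.70e-04). The repressor Bcl6 (0.55, SE 0.12) and the coregulator Cited2 (0.43, SE 0.059) were the others. Bcl6 did not pass without BRD0705 replicate 1.

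Immediate early genes went both ways. Of 25 tested members, 4 were higher with BRD0705 and 3 were higher with CHIR, 28.0% in all against 7.16% of all tested genes. Myc, whose protein GSK3 marks for degradation, was at 72.5, 62.3 and 63.2 CPM with BRD0705, 48.3, 46.7 and 48.0 CPM with CHIR and 60.3, 51.2 and 58.4 CPM in control, and the inhibitor groups did not overlap (log2 0.47, SE 0.066, edgeR adjusted p = 6.54e-04). The others higher with BRD0705 were the AP-1 subunit Jund (0.35, SE 0.080) and the matricellular proteins Ccn2 (0.34, SE 0.054) and Ccn1 (0.29, SE 0.059). Klf10, a transcription factor induced by TGF-β, was at 135, 142 and 132 CPM with BRD0705, 174, 173 and 172 CPM with CHIR and 112, 122 and 118 CPM in control, higher with CHIR (log2 -0.34, SE 0.052, edgeR adjusted p = 0.00130). Both inhibitor groups of Klf10 were above control. Ier3 (-0.31, SE 0.061) and Ier2 (-0.18, SE 0.053) were the other members higher with CHIR, and without CHIR replicate 2, when Ier3 was among those lost, there was 1, against 5 after the GC and length correction. Fos did not pass (0.04, SE 0.20), nor did Egr1 (-0.42, SE 0.14, adjusted p = 0.0762). Jund did not pass without BRD0705 replicate 3, CHIR replicate 2 or CHIR replicate 3.

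Of 17 tested ERK feedback genes, 2 were called, 1 in each direction (11.8%, against 7.16% of all tested genes). The phosphatase Dusp1 was at 123.3, 119 and 125 CPM with BRD0705, 96.8, 93.8 and 98.3 CPM with CHIR and 96.0, 86.3 and 87.0 CPM in control. BRD0705 was apart from both other groups (log2 0.35, SE 0.052, edgeR adjusted p = 0.00119), and its difference from control was 0.45 with BRD0705 (adjusted p = 0.00127) and 0.10 with CHIR (adjusted p = 0.337). The ERK pathway inhibitor Spry4 was higher with CHIR (-0.23, SE 0.061), a call that was lost when BRD0705 replicate 1, 2 or 3 or CHIR replicate 2 or 3 was left out.

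Few genes of the pluripotency network were called. Of 27 core and naive genes 1 was called (3.70%, against 7.16% of all tested genes): Klf4, a naive state transcription factor, was at 149, 153 and 143 CPM with BRD0705, 178, 192 and 195 CPM with CHIR and 165, 160.4 and 169 CPM in control. Its 3 groups did not overlap, with control between the inhibitors (log2 -0.34, SE 0.056, edgeR adjusted p = 0.00184). The 95% intervals of the log2 difference were -0.07 to 0.15 for Pou5f1 and -0.14 to 0.07 for Nanog. Esrrb, a direct naive state activator, was at 938, 918 and 929 CPM with BRD0705 and 1029, 1023 and 1049 CPM with CHIR, without overlap, but did not pass (-0.15, SE 0.049, adjusted p = 0.0703). Without BRD0705 replicate 2 the count higher with CHIR was 3 and that higher with BRD0705 was 1. After the GC and length correction 6 were higher with CHIR. With DESeq2 3 were higher with CHIR, with limma voom 2 and with all 9 libraries in 1 fit 4. When libraries were scaled by total count alone, 1 was called on each side. Of 19 formative and primed genes, Sox4 was called, higher with BRD0705 (0.39, SE 0.058), and 2 members were without BRD0705 replicate 3, CHIR replicate 2 or CHIR replicate 3.

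Stress response genes gave 4 calls among 30 tested members, each higher with CHIR, which is 13.3% against 2.79% of all tested genes. Without the low-count filter 7 were higher with CHIR and 1 was higher with BRD0705. Besides Cirbp these were the integrated stress response genes Ddit3 (-0.62, SE 0.12) and Ppp1r15a (-0.31, SE 0.059) and the BH3-only gene Pmaip1 (-0.37, SE 0.078). Ppp1r15a was at 63.7, 56.7 and 60.4 CPM with BRD0705, 74.5, 72.9 and 76.7 CPM with CHIR and 58.2, 56.9 and 59.4 CPM in control, and CHIR was above both other groups. Ddit3 has a second row in the table, so its counts are uncertain.

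The remaining lists had few calls. Of 87 cytosolic ribosomal protein genes 3 were called, each higher with CHIR (3.45%, against 2.79% of all tested genes), among them Rps24 (-0.28, SE 0.056) and Rpl23 (-0.26, SE 0.056). The median of the list was -0.077, and the count was 1 without BRD0705 replicate 1 or CHIR replicate 2 and 11 without BRD0705 replicate 3. Of 79 respiratory chain subunits, Sdhd and Cox7b were called, higher with CHIR, which is 2.53% of the list, and neither call held in the GC and length correction. Sdhd did not pass when any 1 library was left out, and Cox7b did not pass without BRD0705 replicate 1 or 3 or any CHIR replicate, while 5 subunits passed without BRD0705 replicate 3. Of 15 mitochondrial genome transcripts, mt-Rnr2 was called (-0.29, SE 0.065). Its call did not hold in that correction either, nor without BRD0705 replicate 2 or CHIR replicate 1, and 8 members passed without BRD0705 replicate 1. The list median was -0.23, against 0.0041 for all tested genes. Of the 15 members, 3 had a difference above 0, and 9 had an unadjusted p under 0.05, as had 3353 of all 14921 genes. The share of counts from the mitochondrial genome was 1.61 ± 0.26% in the BRD0705 libraries and 1.86 ± 0.063% in the CHIR libraries (SD, n = 3 each, exact permutation test, 2-sided p = 0.2, where 0.1 is the smallest possible). In 4 further lists a single member was called: the microRNA effector Tnrc6c (0.43, SE 0.062) of 33 mRNA decay regulators, the demethylase Kdm6b (0.27, SE 0.077) of 51 histone lysine methyltransferases and demethylases, the sterol enzyme Nsdhl (0.35, SE 0.064) of 29 lipid synthesis genes, and the glycolysis regulator Pfkfb3 (-0.29, SE 0.062) of 34 genes of glycogen and glucose metabolism. By edgeR 0 of 22 replication-dependent histone genes passed, 3 had an unadjusted p under 0.05, and DESeq2 and limma voom called 0, while 1 passed without BRD0705 replicate 1. Kdm6b passed under 11 of 20 alternatives and was lost, among others, in the GC and length correction (log2 0.11), with the deposited normalized values and without BRD0705 replicate 1 or 2 or CHIR replicate 1 or 2, and Pfkfb3 without BRD0705 replicate 1 or CHIR replicate 2.

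Among the markers of other cell types, 1 gene was called. The dishes were feeder-treated, and by edgeR 0 of 19 fibroblast markers passed, with 1 at an unadjusted p under 0.05 and 0 calls by DESeq2 or limma voom, and 1 passed without CHIR replicate 1. Col1a1, a collagen of fibroblasts, was at 1781, 1706 and 1672 CPM with BRD0705 and 1617, 1784 and 1555 CPM with CHIR, and Fn1, fibronectin, at 2789.6, 2793 and 2387 and 2405, 2703 and 2535 CPM. The values of the inhibitor groups overlapped for both genes, and neither gene was near 0 in any of these libraries. The mean log2 CPM of the 19 markers was 6.77 ± 0.018 in the BRD0705 libraries and 6.74 ± 0.16 in the CHIR libraries (SD, n = 3 each, exact permutation test, 2-sided p = 1, where 0.1 is the smallest possible), against 6.58 ± 0.088 in control. With this mean as a covariate 1129 genes were called, 1004 of them among the 1069. Of 10 primitive endoderm markers Pdgfra was called, which did not hold when any 1 library was left out, with DESeq2 or after the GC and length correction. By edgeR 0 of 6 neural progenitor and 0 of 8 trophoblast markers passed, with 2 and 0 at an unadjusted p under 0.05 and 0 calls by DESeq2 or limma voom, and 1 neural progenitor marker passed without BRD0705 replicate 2. No marker on the list for cells like the early cleavage embryo had enough counts to be tested.

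The genes called on the 2 sides without the GC and length correction differed in form. The median transcript length was 4315 bases for genes higher with BRD0705, 3196 bases for genes higher with CHIR and 3274 bases for all tested genes, and the median number of exons was 6, 8 and 8. The libraries had length trends of their own. Across genes, the Spearman correlation of a library's deviation with transcript length was 0.095, 0.18 and -0.082 in BRD0705 replicates 1 to 3. In the CHIR replicates it was -0.082, -0.041 and -0.10. Whether the differences in form hold after the correction was not tested. Single-exon genes were 9.01% of those higher with BRD0705, 3.87% of those higher with CHIR and 5.67% of all. Among genes with an absolute log2 difference of 0.5 or more, long noncoding RNAs were 10.3% of the 260 higher with BRD0705 and 30.2% of the 43 higher with CHIR, against 4.48% of all tested genes. Of those 43 genes, 41.9% can share reads with another row of the table, against 10.8% of the 260. The share of genes called also moved with expression: it was 2.41%, 7.10%, 10.4% and 8.71% in quartiles of increasing level.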

How the data were processed

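RNA sequencing libraries were grouped by the treatment label. The authors deposited whole-number read counts per gene symbol, and a normalized signal table that equals the counts divided by median-of-ratios size factors (within 2.19e-11). RSEM, DESeq2 and mm10 are named in the submitters' processing notes, without their roles. Neither the annotation nor a strand setting for counting is given in the sources used here. The labels name 2 extraction kits, Qiagen and GeneJET, and both polyA RNA and RiboZero depletion, which was not resolved.

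For the 6 inhibitor libraries, counts were fitted in edgeR 4.0.16 (R 4.3.3): filterByExpr by group with a minimum count of 10, TMM scaling, the 2-sided quasi-likelihood F test with 4 residual degrees of freedom, and Benjamini-Hochberg adjustment over 14921 genes at 0.05. CPM values used TMM scaling over all 9 libraries, and standard errors came from the log2 difference and its F statistic. Limma 3.58.1 and DESeq2 1.42.0 served for alternatives. On simulated counts of 14921 genes with 200 changed, the fit recovered 86% of changes of 1 and 68% of 0.5 on the log2 scale, and 7.78% of its calls were false. The simulated libraries held no trend over GC content or length, so these shares may not carry over to the libraries compared here. Transcript GC content, length and strand overlaps came from GENCODE vM39, where 49542 of 52264 rows matched by their symbol and 103 through an older one. Positions came from RefSeq on GRCm38.p6, the assembly of mm10.

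The members and lists were chosen with earlier results of these data known. The genes named were Ctnnb1, Gsk3a and Gsk3b, the 12 largest differences on each side and the 5 smallest p-values among called genes with a mean CPM of at least 5, no overlap and a unique named symbol, up to 2 called members per list and direction, and the 2 markers with the highest level. Of these, 1 gene is not reported here. Other list members named were chosen after their values were seen. Libraries of a group differed by more than sampling noise (chi-square per degree of freedom 3.52 to 8.07), so none was counted as a duplicate. Alternatives were the replicate block, corrections, tools, scalings, filters and left-out libraries given at the end.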

Additional observations from a re-analysis of the deposited data

How the results depend on the processing

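The count of 1069 genes between BRD0705 and CHIR was within 1.5 times under DESeq2 (897), limma voom (1021), other size factors (1067), total count scaling (1065), the GC and length correction (1114), the deposited normalized values (1060 and 1072), all 9 libraries in 1 fit (1194) and the other filters (1101 and 1524). Leaving out 1 library gave 456 to 929 genes, 312 to 560 of them higher with BRD0705 and 144 to 369 higher with CHIR, from fewer samples. The count of genes higher with BRD0705, 653, became 397 after the GC and length correction. The count higher with CHIR, 416, became 717 after that correction, 234 with total count scaling and 644 without the low-count filter. A minimum log2 difference of 0.5 left 303 genes (260 and 43) and one of 1 left 57 (49 and 8). The cause of these shifts was not tested.

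Replicate numbers are shared by the groups, but same-numbered libraries did not deviate together (correlations -0.066, 0.097 and -0.10). The reported fit used no pairing, though these few correlations cannot exclude one. With the replicate block 549 genes passed, 370 higher with BRD0705 and 179 higher with CHIR. With the block and the GC and length correction 574 passed, 233 of them higher with BRD0705. Of 1148 tests of the 58 named genes under the alternatives, 1066 stayed on the same side of the threshold and 82 no longer passed. No called gene among the 58 changed direction, while Gsk3a (-0.14 to 0.02), Fn1 (-0.07 to 0.13) and Col1a1 (-0.09 to 0.12), which were not called, took both signs. Genes with few counts limit the comparison: in the lowest quartile of expression 2.41% were called, with a median absolute log2 difference of 1.00.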
